A study of Mus musculus with 21 samples.

Results

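The genes described here are 9 genes of leukotriene synthesis, leukotriene B4 sensing and the membrane-bound glutathione transferases that are related to leukotriene C4 synthase. They are Alox5, Alox5ap, Lta4h, Ltc4s, Mgst1, Mgst2, Mgst3, Ltb4r1 and Ltb4r2. They were taken by symbol from the 2 tables of hematopoietic stem cells (HSC), where all 9 were listed, among 13380 genes shared by both tables. The genes were chosen by their levels in the sedentary, active and transplant HSC libraries, so HSC values of these genes are given as a description and support nothing, whereas the tumour values were not used in the choice and were tested.

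Leukotrienes are lipid mediators made from arachidonic acid in myeloid cells. 5-lipoxygenase (Alox5), helped by its activating protein (Alox5ap), makes leukotriene A4, which Lta4h hydrolyses to leukotriene B4 and which Ltc4s joins to glutathione to give leukotriene C4. Leukotriene B4 attracts neutrophils through the receptor encoded by Ltb4r1, while Ltb4r2 encodes a receptor of lower affinity. Mgst1, Mgst2 and Mgst3 belong to the same membrane protein family as Alox5ap and Ltc4s. They conjugate or reduce reactive compounds with glutathione, and Mgst2 can also make leukotriene C4.

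RNA was sequenced from mice carrying the MMTV-PyMT transgene, in which a mammary tumour virus promoter drives the polyoma middle T oncogene in mammary epithelium. All groups carried it. HSC were freshly sorted from sedentary mice at week 12, from physically active mice at week 12, and from a transplant group at week 14, with 3 libraries each. The mice of the transplant group were sedentary and had received cells of a physically active mouse. Mammary tumours came from sedentary and from physically active mice at week 12 and week 18, also with 3 libraries each, which gives 21 libraries in all. The labels call the libraries of a group biological replicates. They do not say which cells were transplanted or what share of the sorted cells came from the donor. The groups hold no transplant from a sedentary donor, so transplantation, the donor's activity and the 2 weeks of difference in time cannot be told apart in the transplant group.

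The third HSC library of each group held 58500940 to 72417315 reads, and the others held 16406889 to 24574563. The second active library, numbered 6 in the labels, was present in both HSC tables, but its reads differed at 13086 of 13380 shared genes, against 4 genes for each of the other active libraries. At most 1 of the columns can be that library, so they are shown apart. The column in the table with the sedentary libraries is called 6a here, and the column in the table with the transplant libraries is called 6b. Over 10780 genes whose mean reached 50 scaled counts in the 8 libraries of certain identity, deviations from the mean of those libraries correlated at 0.46 to 0.73 between 6a and the transplant libraries, and at -0.67 to -0.52 between it and the sedentary libraries. For 6b the corresponding values were -0.70 to -0.60 and 0.59 to 0.73. With active libraries 1 and 3 the correlations were 0.14 and -0.38 for 6a, and -0.30 and 0.33 for 6b. Of 14 HSC markers, 13 were listed, and their levels differed widely over the 10 columns. Kit was at 5135 to 7295 scaled counts and Cd34 at 5962 to 18071. Mecom was at 45.5 to 179, Procr at 31.2 to 120 and Fgd5 at 2.83 to 114, while Hoxb5 was not listed. The myeloid precursor gene Mpo was at 52574 to 241734. The tumours held 20838963 to 28973775 reads.

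Sequence upstream of the RefSeq transcription start is shown for 3 members with higher values in the transplant libraries (Alox5, Mgst2, Ltb4r1) and for 1 with similar values in most HSC libraries (Mgst3), so that the promoters can be read side by side. The windows are in GRCm38.p6, which has the coordinates of mm10, the build in the submitters' processing notes. Promoter windows were listed for 7 of the 9 members. Capitals mark matches, on either strand, to GGAAGT (a core bound by ETS factors) or to TGACNNNGC (the core of the antioxidant response element). TTGCNNAA (a C/EBP core) was searched too. The Alox5 window is chr6:116461179-116461428 on the minus strand, the Mgst2 window is chr3:51660929-51661177 on the plus strand, the Ltb4r1 window is chr14:55765712-55765961 on the plus strand and the Mgst3 window is chr1:167393842-167394091 on the minus strand. The Alox5 and Mgst3 windows end at the base next to their gene. The Mgst2 window lies inside the longer Mgst2 gene of the GENCODE M21 annotation, outside its exons. The Ltb4r1 window lies in the 823 bases between Ltb4r2 and Ltb4r1.
Alox5: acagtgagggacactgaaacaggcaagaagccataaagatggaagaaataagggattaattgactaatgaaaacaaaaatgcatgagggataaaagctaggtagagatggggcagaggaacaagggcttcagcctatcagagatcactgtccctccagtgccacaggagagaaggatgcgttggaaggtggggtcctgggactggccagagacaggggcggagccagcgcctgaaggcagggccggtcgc
Mgst2: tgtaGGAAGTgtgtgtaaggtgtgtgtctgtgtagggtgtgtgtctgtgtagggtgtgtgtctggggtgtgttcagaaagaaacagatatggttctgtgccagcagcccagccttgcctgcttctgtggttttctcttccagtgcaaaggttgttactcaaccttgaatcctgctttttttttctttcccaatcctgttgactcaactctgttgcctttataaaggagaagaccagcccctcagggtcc
Ltb4r1: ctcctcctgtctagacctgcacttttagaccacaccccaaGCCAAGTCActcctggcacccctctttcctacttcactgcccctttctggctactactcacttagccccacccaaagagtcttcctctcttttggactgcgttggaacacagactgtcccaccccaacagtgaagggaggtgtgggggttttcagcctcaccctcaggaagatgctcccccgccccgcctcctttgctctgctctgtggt
Mgst3: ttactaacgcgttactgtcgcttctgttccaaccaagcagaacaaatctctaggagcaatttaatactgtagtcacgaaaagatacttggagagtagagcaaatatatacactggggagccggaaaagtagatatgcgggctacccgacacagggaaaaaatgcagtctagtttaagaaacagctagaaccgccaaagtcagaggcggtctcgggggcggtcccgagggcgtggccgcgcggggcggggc

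The Mgst2 window held 1 ETS core, whose first base is at -246 from the start, and the Ltb4r1 window held 1 antioxidant core at -210. The Alox5 and Mgst3 windows held none of these letters. In windows not printed here, Ltc4s held an ETS core at -116, the upstream of the 2 Mgst1 windows held a C/EBP core at -83 and an antioxidant core at -56, and Lta4h held no match. The matches do not overlap each other. Over the same 250 bases of all 32851 RefSeq windows, 19.7% held the ETS core, 9.56% the C/EBP core and 10.2% the antioxidant core. The G and C share was 52.8% for Alox5, 47.6% for Mgst2, 56.8% for Ltb4r1 and 51.6% for Mgst3, beside a median of 52.4% over all windows. These are letter matches only.

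In HSC, 7 of the 9 members were higher in every transplant library than in every sedentary library, beside 20.3% of all genes. Group means differed by 7.59 times for Mgst2, 4.55 for Alox5, 4.32 for Mgst1, 3.82 for Ltb4r1, 2.12 for Lta4h and 1.65 for Alox5ap, Ltb4r2 went from 1 read to 31, and Mgst3 and Ltc4s overlapped. Active library 1 lay above all sedentary libraries for 6 members and active library 3 for 5. Column 6a lay above all sedentary libraries for 9 of 9 members and 6b inside the sedentary range for 6. The share over all genes was not computed for these counts of single columns, so nothing is read from them. Levels are reads recovered from the deposited values and scaled by the median of ratios over all 10 columns, called scaled counts below. Since the sorted cells were measured in bulk, fewer cells of a type and less RNA per cell cannot be told apart.

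**Figure D1:**
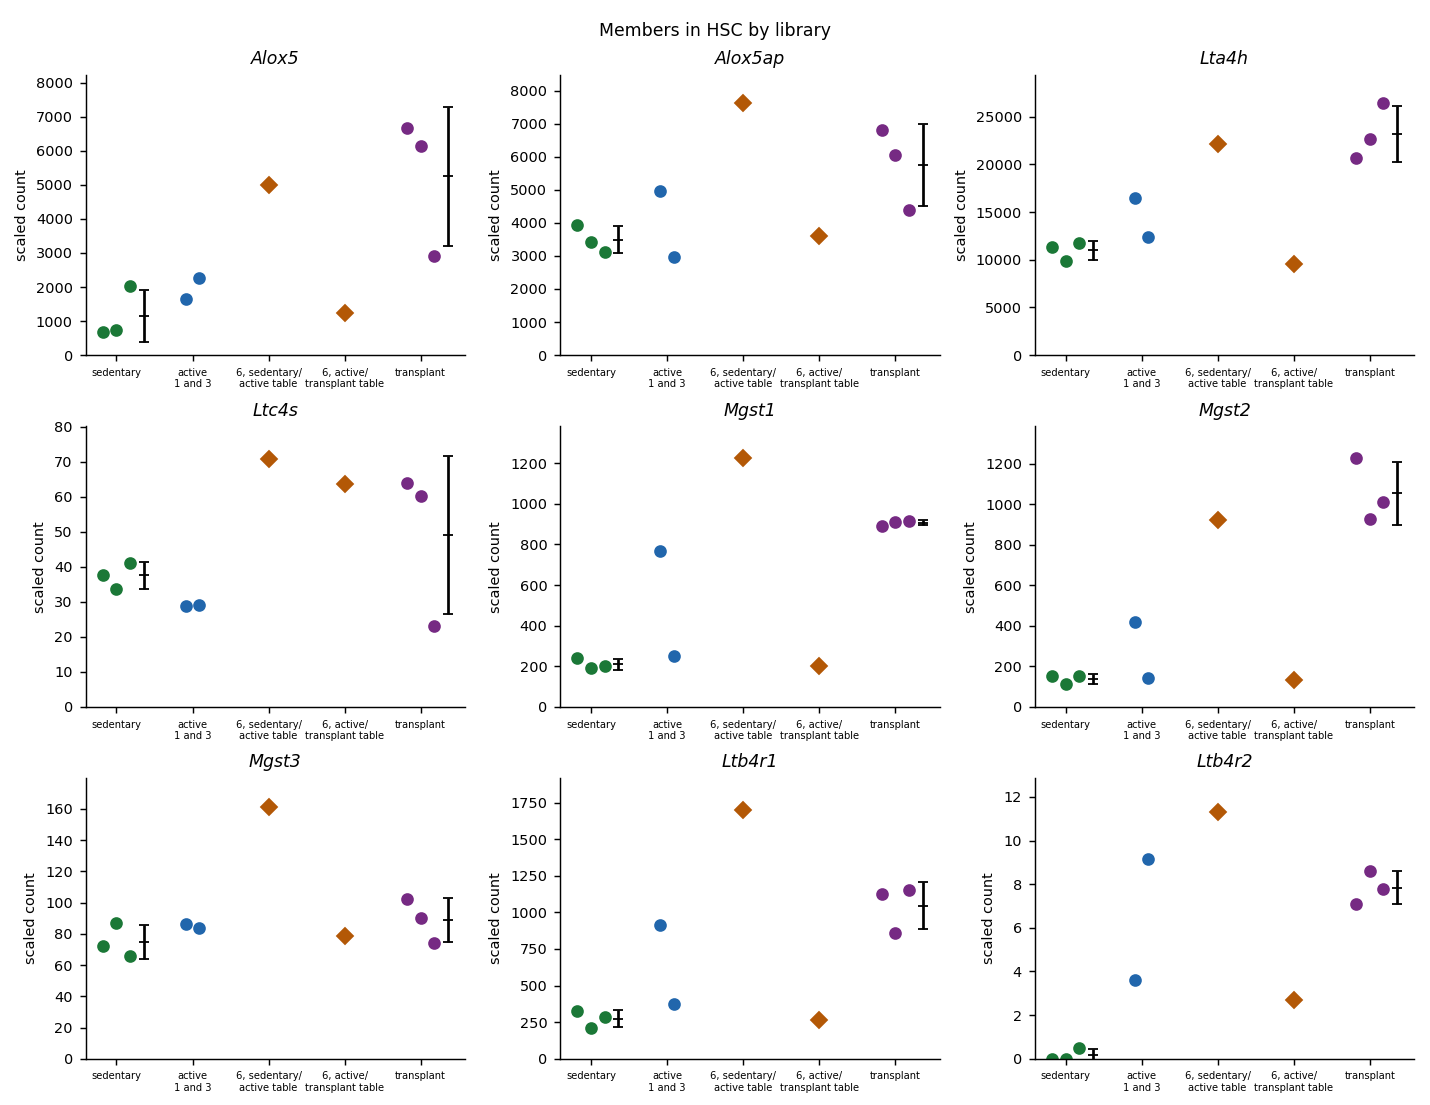
Scaled counts of the 9 members in each HSC column (linear axes from 0), by group. Circles are libraries, diamonds are the 2 columns numbered 6, and black bars are mean ± SD of the sedentary and of the transplant libraries (n = 3 each). Column 6a (left diamond) sits above 6b for all 9 members.

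Alox5, the enzyme that commits arachidonic acid to leukotrienes, read 692, 733 and 2039.5 scaled counts in sedentary libraries 1, 2 and 3. It read 1654 and 2274 in active libraries 1 and 3, and 6682, 6149 and 2915 in the transplant libraries. All transplant libraries were above all sedentary and active ones, although the third sedentary library stood near the active ones and the third transplant library was the lowest of its group. Column 6a read 4998 and 6b read 1232. Transplant over sedentary gave a log2 fold change of 2.28 ± 0.53 (SE), and it was 3.17 with libraries 1 and 2 of each group alone.

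Alox5ap, which presents arachidonic acid to 5-lipoxygenase, read 3929, 3409.9 and 3121 in the sedentary libraries, 4951 and 2958 in active libraries 1 and 3, and 6816, 6052 and 4374 in the transplant libraries. Transplant was above sedentary throughout, but active library 1 lay inside the transplant range. Column 6a gave 7623, the highest of the columns, and 6b gave 3599.9. On the log2 scale, transplant over sedentary gave 0.70 ± 0.20.

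Lta4h, which makes leukotriene B4, read 11372, 9826 and 11720.4 in the sedentary libraries, 16496 and 12391 in active libraries 1 and 3, and 20624, 22641 and 26395 in the transplant libraries. These 8 libraries did not overlap between groups, in the order sedentary, active, transplant. Column 6a at 22169 lay among the transplant libraries and 6b at 9546 lay below the sedentary ones. Transplant over sedentary gave a log2 fold change of 1.078 ± 0.14.

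Ltc4s, the leukotriene C4 synthase, was read at 19 to 82 reads per library in sedentary HSC. It gave 37.8, 33.7 and 41.2 scaled counts in the sedentary libraries, 28.8 and 29.1 in active libraries 1 and 3, and 63.8, 60.3 and 23.0 in the transplant libraries. The third transplant library was the lowest of the 10 columns, so the groups overlapped. Both columns numbered 6 were high, at 70.8 for 6a and 63.7 for 6b. Transplant over sedentary gave 0.25 ± 0.40 on the log2 scale, and 0.78 with libraries 1 and 2 alone.

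Mgst1, a membrane glutathione transferase and peroxidase, read 239.8, 189.5 and 199.8 in the sedentary libraries, 767 and 249 in active libraries 1 and 3, and 892, 909 and 917 in the transplant libraries. The transplant libraries differed little among themselves (906 ± 12.6 (SD, n = 3), against 209.7 ± 26.6 in sedentary HSC), and the active libraries were 3.08 times apart. Column 6a gave 1226, above every other column, and 6b gave 201.8, inside the sedentary range. The transplant libraries were higher by 2.11 ± 0.13 on the log2 scale.

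Mgst2, the member of the family that can also make leukotriene C4, had the widest range of the members with a mean of at least 50. It read 154, 112 and 151 in the sedentary libraries, 420.1 and 144 in active libraries 1 and 3, and 1226, 926 and 1009 in the transplant libraries. All transplant libraries were above all sedentary and active ones. Column 6a gave 922 and 6b gave 133. The transplant mean was above the sedentary one by 2.92 ± 0.18 on the log2 scale.

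Mgst3, the third glutathione transferase, gave 65.8 to 86.8 in the sedentary libraries, 83.4 and 86.4 in the active ones and 74.3 to 102 in the transplant ones. These groups overlapped. Column 6a alone stood apart, at 161, beside 78.6 in 6b. Transplant over sedentary gave 0.24 ± 0.17 on the log2 scale.

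Ltb4r1, the high-affinity leukotriene B4 receptor of neutrophils, read 327, 209.0 and 286 in the sedentary libraries, 911 and 375 in active libraries 1 and 3, and 1125, 859 and 1153 in the transplant libraries. Active library 1 lay inside the transplant range and active library 3 just above the sedentary one. Column 6a gave 1699 and 6b gave 267. The log2 fold change of transplant over sedentary was 1.94 ± 0.22.

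Ltb4r2, whose gene lies next to Ltb4r1 on the same strand, was near the detection floor. The sedentary libraries held 0, 0 and 1 reads, active libraries 1 and 3 held 3 and 22, and the transplant libraries held 5, 7 and 19. Sedentary HSC thus gave 1 read in all and transplant HSC 31, a ratio of scaled rates of 24.8 with an exact 95% interval of 4.14 to 1011 that covers counting error only. Column 6a held 8 reads and 6b held 2. Reads were pooled over the libraries of each group for this ratio, so its interval does not cover error between mice. They were not tied to unique molecules either, so a low number of reads is not a number of molecules.

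Between genes, levels can be set side by side only per length. Per kilobase of annotated exon, the mean scaled count over the 8 libraries of certain identity was 3135 for Alox5ap and 2693 for Lta4h, then 704 for Alox5, 470.3 for Ltb4r1 and 271 for Mgst1. Lower levels were 139.8 for Mgst2, 75.3 for Mgst3, 39.1 for Ltc4s and 1.24 for Ltb4r2. Lta4h stood above Ltc4s in each of these libraries, at 1610.2 to 4326 scaled counts per kilobase against 22.7 to 63.0. Alox5ap, at 2083 to 4799.7, overlapped Lta4h. Neighbours in this order overlapped in their range over the 8 libraries, except Ltc4s and Ltb4r2, the latter at 0 to 2.46.

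The genes differed in place and size. In GENCODE M21 (GRCm38) Mgst1 is at chr6:138140316-138156755 and Alox5 at chr6:116410077-116461178, Mgst2 at chr3:51660360-51682677, Mgst3 at chr1:167371966-167393841, Alox5ap at chr5:149264767-149288153, Lta4h at chr10:93453411-93484875 and Ltc4s at chr11:50236461-50238616. Ltb4r2 at chr14:55761428-55765138 and Ltb4r1 at chr14:55765962-55768494 are neighbours on the plus strand. Mgst2, Alox5ap and Ltc4s each overlap another annotated gene, so their counts are uncertain to that extent. Whether the counting used strand is not given in the sources used here, and of these overlaps the one of Mgst2 is on its own strand.

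In the fit of active over sedentary HSC, made on the deposited values with 6a, all 9 members had log2 fold changes above 0. They were 1.63 ± 0.56 for Ltb4r1, 1.56 ± 0.59 for Mgst1, 1.47 ± 0.67 for Mgst2, 1.39 ± 0.59 for Alox5 and 0.60 ± 0.24 for Lta4h. Smaller values were 0.49 ± 0.30 for Mgst3, 0.47 ± 0.36 for Alox5ap and 0.06 ± 0.37 for Ltc4s, while Ltb4r2 was at its floor in sedentary HSC. Without 6a, and so with 2 active libraries, these smaller values were 0.18 for Mgst3, 0.14 for Alox5ap and -0.36 for Ltc4s, and without active library 3 that of Alox5ap was 0.83. With 6b in its place the values were 0.74, 0.69, 0.54, 0.72 and 0.19 for Ltb4r1, Mgst1, Mgst2, Alox5 and Lta4h, and 0.15, 0.11 and 0.01 for Mgst3, Alox5ap and Ltc4s. The choice of column therefore moved each of these by over 1.5 times.

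Limma called 0 of 9 members and 0 of 13513 tested genes (0%) at an adjusted p of 0.05 in that comparison. At an unadjusted p of 0.05 the counts were 4 of 9 members and 9.27% of genes, edgeR called 0 members and 0 genes in all, and DESeq2 called 3 members (Mgst1, Mgst2 and Ltb4r1) among 257 genes. The active libraries all lay above the sedentary ones for 4 members, beside 10.4% of genes, and for 1 member (Ltb4r2), beside 3.17% of genes, with 6b. Since the choice of the genes used these values, nothing is read from these counts.

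In the fit of transplant over active HSC with 6b, the largest log2 fold changes were 2.37 ± 0.46 for Mgst2, 1.56 ± 0.40 for Alox5, 1.42 ± 0.51 for Mgst1, 1.20 ± 0.46 for Ltb4r1 and 0.88 ± 0.23 for Lta4h. The other members were at 0.66 ± 0.39 for Ltb4r2, 0.59 ± 0.26 for Alox5ap, 0.24 ± 0.51 for Ltc4s and 0.08 ± 0.15 for Mgst3. With 6a the values were 1.45 for Mgst2, 0.89 for Alox5, 0.56 for Mgst1, 0.31 for Ltb4r1 and 0.48 for Lta4h. Both comparisons with active HSC share the active libraries, and each is given for its own values only.

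Limma called 0 of 9 members and 0.0513% of 13633 tested genes there, and 0 of either with the replicate number as a block. The unadjusted counts were 5 of 9 members and 17.8% of genes, edgeR called 0 members and 1 gene in all, and DESeq2 called 3 members (Mgst2, Alox5 and Lta4h) among 1107 genes. Leaving out active library 1 gave 2 member calls, Mgst1 and Mgst2, among 79 genes, against 7 genes with it. All transplant libraries lay above all active ones for 4 members, beside 13.1% of genes, and with 6a for Mgst2 alone, beside 2.68% of genes. The choice of the genes used these values too, so nothing is read from these counts.

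Transplant over sedentary HSC involves neither column numbered 6. Limma called 6 of 9 members, all higher (Mgst1, Mgst2, Ltb4r1, Ltb4r2, Lta4h and Alox5), beside 7.94% of genes called higher and 11.6% called in either direction. The groups did not overlap, with transplant higher, for 7 of 9 members and 20.3% of genes. The members' median log2 fold change was 1.94, beside 0.00 over all genes. Without sedentary library 1 or 2, or transplant library 2, the count was 4 and Lta4h and Alox5 were no longer called. Without transplant library 3 it was 8. Over all genes, 1552 calls became 295 and 236 without sedentary library 1 and 2, and 467 and 255 without transplant library 1 and 2. Without sedentary library 3 the calls over all genes were 1469, and without transplant library 3 they were 1667. Mgst1, Mgst2 and Ltb4r1 were called in all 15 alternatives run, Ltb4r2 in 13 of 14 and Mgst3 in 0 of 15. Lta4h and Alox5 were called in 11 and 8 of 15, and Alox5ap and Ltc4s in 4 and 2. As the rule used these values, the counts describe the choice.

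**Figure D2:**
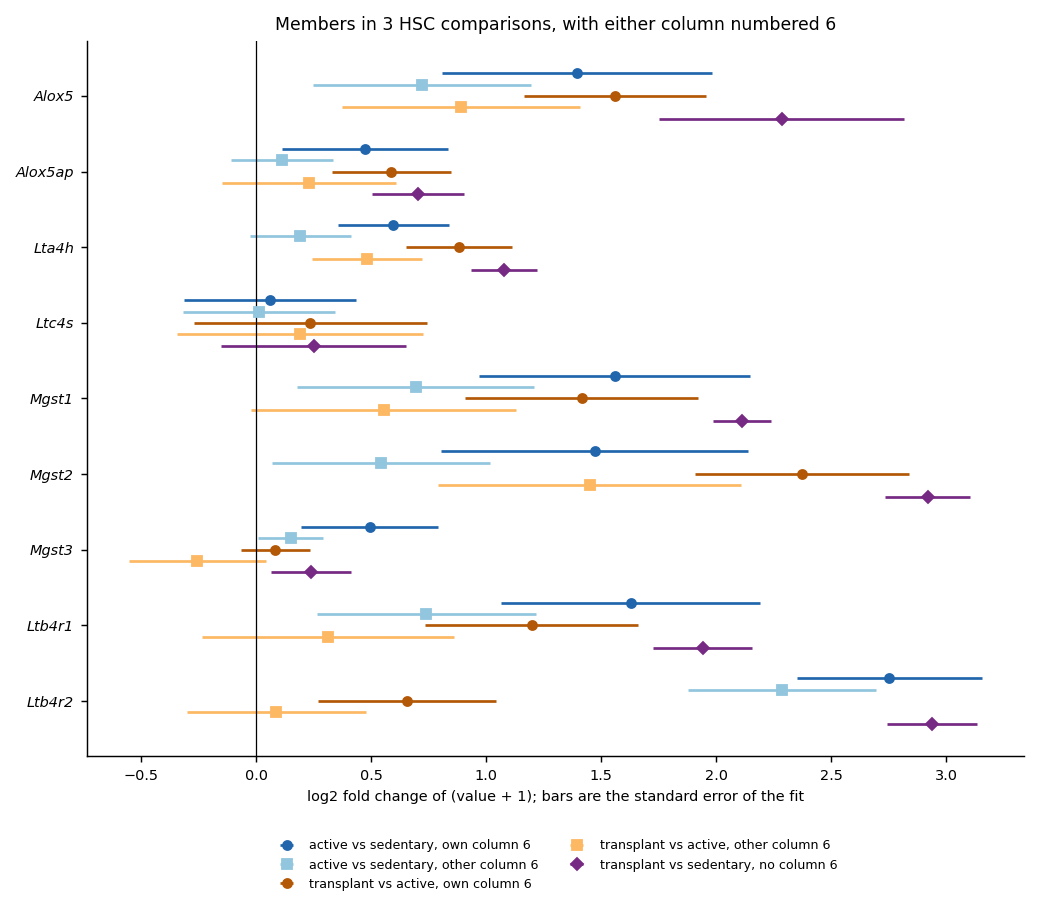
Log2 fold changes of the 9 members in 3 HSC comparisons (horizontal axis, on the log2(value + 1) scale, above 0 where the group named first is higher), with standard errors of the limma fit. Circles use the column numbered 6 of the table fitted, squares that of the other table, and diamonds need neither. Ltb4r2 is near its floor in sedentary HSC, where its fold depends on the pseudocount, and Mgst2 reaches 2.92 in transplant over sedentary HSC.

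Other genes of the pathway were taken from lists that were also drawn up with earlier results of these data known. In transplant against sedentary HSC, 5 of 15 tested leukotriene neighbours rose and 2 fell (limma, adjusted over all genes). For this and the lists that follow, 7.94% of all genes were called higher and 11.6% in either direction, and nothing is called particular to a list. Ptgr1, which inactivates leukotriene B4, rose by 2.11 ± 0.17 on the log2 scale, from 487 ± 85 to 2086 ± 178 scaled counts (SD, n = 3), with an adjusted p of 0.0068. Cysltr1, a receptor of the cysteinyl leukotrienes, rose by 1.20 ± 0.20, and Cyp4f18, which oxidises leukotriene B4 in mouse myeloid cells, rose by 1.09 ± 0.19. Cotl1, a protein that binds 5-lipoxygenase, rose by 0.96 ± 0.12, and Dpep2, a dipeptidase that acts on leukotriene D4 and is named here after its values were seen, by 3.84 ± 0.84. The genes that fell encode gamma-glutamyl transferases, which start the conversion of leukotriene C4 to leukotriene D4: Ggt5 had a log2 fold change of -1.41 ± 0.32 and Ggt1 of -1.28 ± 0.30. The list's median log2 fold change was 0.18.

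Among the lipoxygenases and the lipoxin receptor, 3 of 4 tested genes rose. Fpr2, a formyl peptide and lipoxin receptor, read 6.57, 5.31 and 28.1 scaled counts in sedentary libraries and 242.6, 171 and 117 in transplant ones. Alox12, the platelet-type 12-lipoxygenase, gave 2 reads over the sedentary libraries and 162 over the transplant ones, a ratio of rates of 64.8 (exact 95% interval of 17.7 to 540.0, counting error only). The transplant libraries differed widely for Alox12, at 116, 50.4 and 16.0 scaled counts, and its call held in 9 of 15 alternatives. Alox8 rose by 2.22 ± 0.48.

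In the prostaglandin arm, 5 of 19 tested genes rose and 0 fell. Ptgs1, the constitutive cyclooxygenase, rose by 0.88 ± 0.12, from 1291 ± 114 to 2377 ± 164. Tbxas1, the thromboxane synthase, rose by 1.53 ± 0.21, and Ptger2, a receptor of prostaglandin E2, by 0.93 ± 0.13. Ptges, a prostaglandin E synthase of the same membrane family as the Mgst genes, rose by 2.43 ± 0.36 from a low level of 3.91 ± 1.85. Ptgir, the prostacyclin receptor, was the fifth, at 1.18 ± 0.23, and was likewise named after its values were seen.

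Of the cytosolic and mitochondrial glutathione transferases, 4 of 14 tested rose and 0 fell. Gstm1 read 1132, 889 and 1948 in sedentary libraries and 6156, 6388 and 9494 in transplant ones, a log2 change of 2.52 ± 0.34. Gstm4 rose by 1.16 ± 0.25, Gstt2 by 1.17 ± 0.23 and Gstt1 by 3.17 ± 0.69. Of 19 genes of glutathione synthesis and peroxidases, 3 rose and 1 fell. Gpx3, a secreted glutathione peroxidase, rose by 3.15 ± 0.36, Gpx4, which reduces lipid peroxides, by 0.66 ± 0.13 and Chac2, which degrades glutathione, by 0.75 ± 0.14. Txnrd1, the cytosolic thioredoxin reductase, fell by 0.62 ± 0.11 on the log2 scale. The adjusted p of the 23 called genes ran from 0.0068 to 0.048 in limma. In the comparisons with active HSC, limma called 0 genes of these lists, and no difference between the comparisons was tested.

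**Figure D3:**
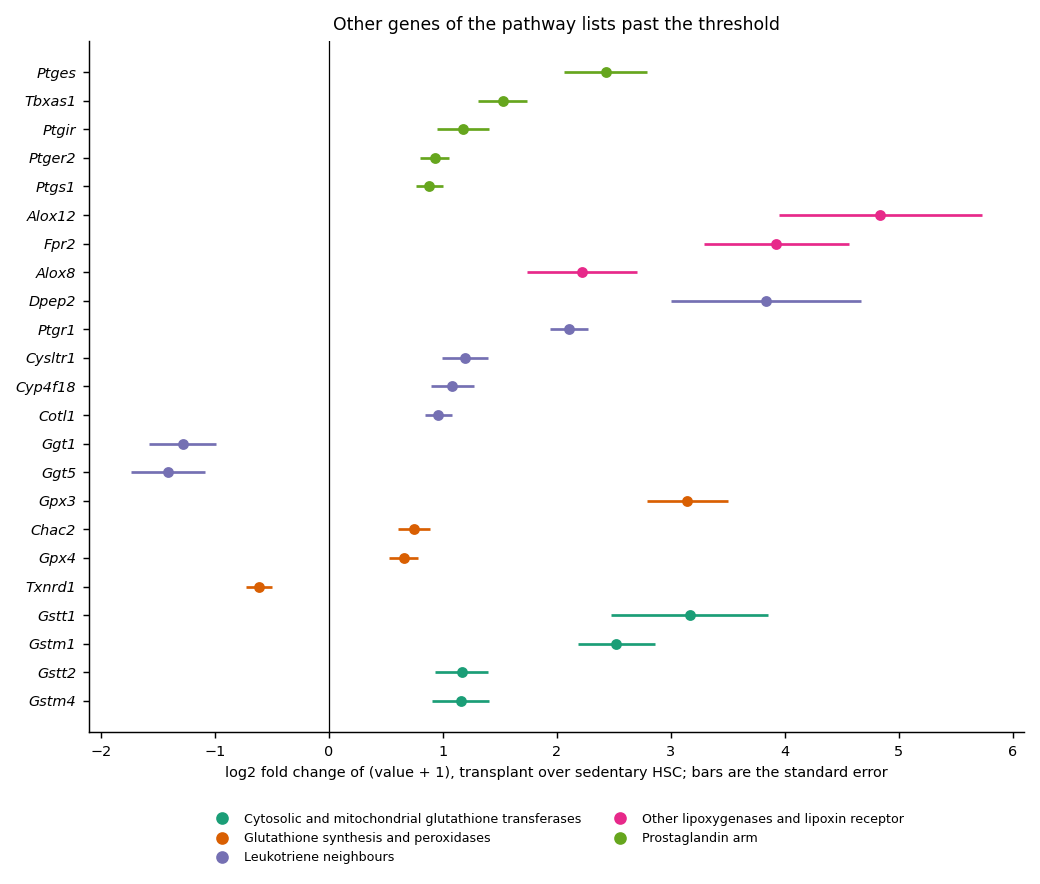
The 23 other genes of the pathway lists past the threshold in transplant against sedentary HSC, with log2 fold change (horizontal axis) and standard error of the limma fit, coloured by list. Of these, 20 lie above 0, and Ggt1, Ggt5 and Txnrd1 lie below it.

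These list calls depended on single libraries. The 23 calls fell to 4 and 3 without sedentary library 1 or 2, and to 6 and 2 without transplant library 1 or 2. Without the third library of the sedentary or of the transplant group they were 16 and 19, and with libraries 1 and 2 of each group alone 17. Ptgr1 and Gpx3 kept their call in 14 of 15 alternatives, and 0 of the 23 genes changed direction.

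Several lists of markers of blood cells and their precursors had higher sums in the transplant libraries and in 6a, and the B cell list had lower ones. Summed over 12 neutrophil and precursor markers, the scaled counts were 85130 to 123604 in sedentary libraries, 151036 and 256263 in active libraries 3 and 1, 319543 to 408985 in transplant libraries, 446891 in 6a and 88646 in 6b. All 12 neutrophil markers and all 8 megakaryocyte and platelet markers rose in transplant against sedentary HSC, as did 3 of 8 tested mast cell and basophil markers, 3 of 7 monocyte and macrophage markers, where 1 fell, and 1 of 6 eosinophil markers, beside 7.94% of all genes called higher and 11.6% in either direction. The megakaryocyte sum was 2155 to 3887 in sedentary and 9188 to 26869 in transplant libraries, and the monocyte sum was 23896 to 25872 and 41325 to 75060. The mast cell and basophil sum was 1873 to 4959 and 5943 to 16538, with active libraries 1 and 3 inside the sedentary range at 4847 and 4534, and the eosinophil sum was 624 to 1071 and 1495 to 1873. The sum of 6 erythroid markers was 39.4 to 107 and 139 to 239.8, and the sum of 3 B cell markers was 184 to 253 in sedentary and 113 to 156 in transplant libraries, with 6a at 76.5. The sum of HSC markers was 29215 to 33075 in sedentary libraries and 16816 to 19007 in transplant ones, where 5 of 13 tested HSC markers fell and 1 rose. The other 7 were not called, and 4 of the 13 had log2 fold changes above 0. Kit and Cd34 had the highest levels of this list, so the sum rests largely on them. T cell markers were mostly not listed, with Lck the only one of 7 in the table and lower in transplant HSC. The part of these cell types in the members' values was not tested.

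**Figure D4:**
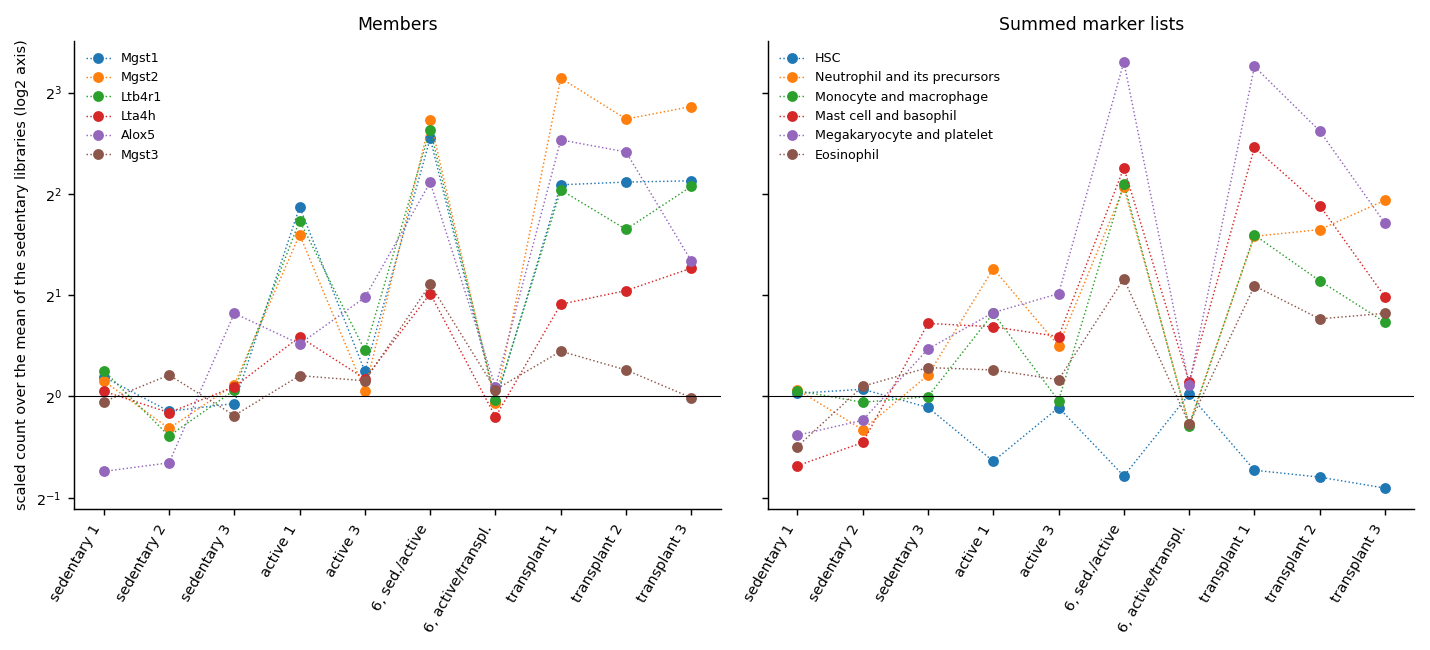
Scaled counts in each HSC column, divided by the mean of the sedentary libraries (log2 vertical axis), for 6 members (left) and 6 summed marker lists (right). Dotted lines only join the points of one gene or list and imply no order. Column 6a (sed./active) and active library 1 lie above 1 for all members shown and for the neutrophil sum, and below 1 for the HSC sum.

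Across the 8 HSC libraries of certain identity, log2 scaled counts of Mgst1 correlated with those of Ltb4r1 at r = 0.98, of Mgst2 at 0.97 and of Lta4h at 0.95, and with those of Ltc4s at 0.20. These are descriptions over libraries that share groups and depth classes. The 5 genes most like Mgst2 among 10780 were Ctps2, Srgn, Neu1, Hsd11b1 and Atp6v0d1, with r from 0.990 to 0.997 over 8 libraries. Such an r compares the shape of the pattern and not the size of the change. Ctps2 ranged only from 1584 to 2049 scaled counts and Atp6v0d1 from 1518 to 2791, whereas Mgst2 ranged from 112 to 1226. Srgn encodes the granule proteoglycan serglycin and Neu1 a lysosomal sialidase. The 5 most like Alox5 were Ms4a2, Arap3, D330045A20Rik, Il1rl1 and Trpc6, with r from 0.989 to 0.998. Ms4a2 encodes the beta chain of the high-affinity IgE receptor of mast cells and basophils, and Il1rl1 the receptor of interleukin 33. Alox5 and Mgst2 correlated at 0.82. Unlike Mgst2, Alox5 was highest in the third library of the sedentary group and lowest in the third library of the transplant group. Ltc4s shared this pattern, and these are the deeply sequenced libraries.

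In the tumours, limma called 0 of 9 members at week 12 (0.517% of genes called), at week 18 (0% of genes) and for the change of the activity effect between weeks (0.0104% of genes). EdgeR called 0 members in each of these, and DESeq2 called 0 at each week. At an unadjusted p of 0.05, 0 of 9 members passed at week 12 (4.09% of genes), 2 of 9 at week 18 (5.97% of genes) and 2 of 9 for the change between weeks (6.33% of genes). The levels below are the deposited normalized counts.

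Mgst2 at week 18 read 12.4, 30.4 and 14.9 in sedentary tumours and 5.20, 4.37 and 7.13 in active tumours. All active values were lower, beside 7.57% of genes with such separated groups. The log2 fold change was -1.54 ± 0.38, with an unadjusted p of 0.0075 and an adjusted p of 0.758 in limma. At week 12 Mgst2 read 32.4, 31.6 and 22.5 in sedentary tumours and 48.3, 24.7 and 551 in active tumours. The third active tumour of week 12 stood far above the rest, and without it the log2 fold change fell from 1.59 to 0.27. The change of the effect between weeks was -3.14 ± 1.31 (limma, unadjusted p = 0.0386, adjusted p = 0.770), and -1.82 without that tumour.

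The same week 12 tumour read 350.1 for Ltc4s and 1541 for Mgst3, against 46.4 to 140.3 and 511 to 702 in the other tumours of that week. It also held 1 read of Ltb4r2, where the others held 13 to 19. Its summed B cell markers were 19511 scaled counts and its T cell markers 11219.8, against 277 to 684 and 269.6 to 346 in the other tumours of that week, while its mammary epithelial sum was 74801 against 185131 to 328193. The part of these cells in the members' values was not tested.

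Ltb4r2 at week 18 read 4.79, 8.10 and 19.8 in sedentary tumours and 68.7, 27.1 and 37.4 in active tumours. The log2 fold change was 2.03 ± 0.58 with an unadjusted p of 0.0146 and an adjusted p of 0.824 in limma, and the change of the effect between weeks was 2.97 ± 1.13 (limma, adjusted p = 0.743), and 1.96 without the third active tumour of week 12. Mgst1 at week 18 read 5421, 7245 and 6357 in sedentary and 9824, 8370 and 7712 in active tumours, a log2 fold change of 0.45 ± 0.19 (limma, adjusted p = 0.824). These 2 members were separated with the active tumours higher, beside 6.03% of genes.

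Lta4h at week 12 read 1993, 1987 and 1980 in sedentary tumours and 2170, 2222 and 2153 in active ones. It was separated by a log2 fold change of 0.14 ± 0.13, beside 4.36% of genes separated with active higher, and its adjusted p was 0.970 in limma. Alox5, Alox5ap and Ltb4r1 overlapped between sedentary and active tumours at both weeks. Alox5 ranged from 95.9 to 192 at week 12 and from 14.6 to 145 at week 18, Alox5ap from 327 to 645 and from 181 to 699, and Ltb4r1 from 26.4 to 41.9 and from 4.79 to 46.6.

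**Figure D5:**
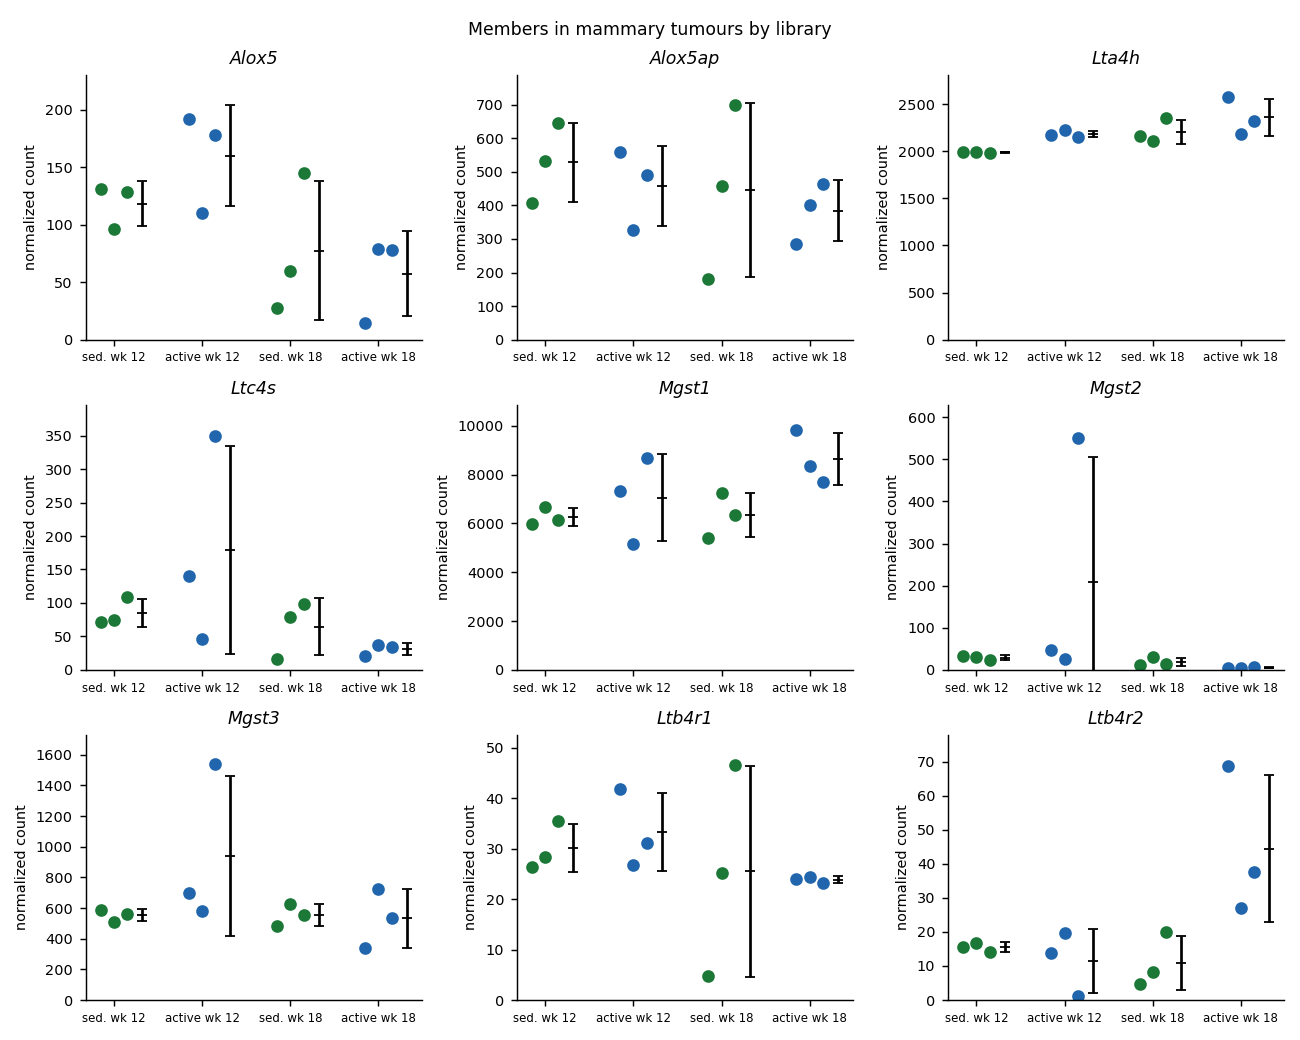
Deposited normalized counts of the 9 members in each of 12 mammary tumours (linear axes from 0), in sedentary (green) and active (blue) mice at weeks 12 and 18, with mean ± SD (n = 3). The third active tumour of week 12 stands apart for Mgst2 (551), Ltc4s (350.1) and Mgst3 (1541).

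The tissues were set side by side as RPM (reads scaled to one library total), without a test because they were normalized separately. Mgst1 ranged from 6.53 to 31.1 in the 8 HSC libraries and from 209.5 to 381 in the 12 tumours, and Mgst3 from 2.24 to 3.496 and from 13.2 to 62.0. The order was the opposite for the leukotriene B4 genes. Lta4h ranged from 339 to 889.9 in HSC and from 79.7 to 99.9 in tumours, Alox5ap from 99.9 to 233 and from 7.80 to 28.2, Alox5 from 23.1 to 229 and from 0.565 to 8.19, and Ltb4r1 from 7.21 to 38.9 and from 0.206 to 1.88. Mgst2, Ltc4s and Ltb4r2 overlapped between the tissues.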

How the data were processed

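The authors deposited 4 tables of a normalized signal per gene, each for 1 comparison. Per the deposited values, each column is a read count divided by 1 factor per library. Whole reads were recovered for 100% of the values, within 0.1 of a whole number. The aligner, counter and annotation are not given in the sources used here. Limma 3.58.1 (R 4.3.3) was fitted to log2(value + 1). Only genes whose mean reached 1 in one of the groups compared were tested. Benjamini-Hochberg adjustment ran over every gene kept, with a threshold of 0.05. Fold changes on this scale understate the change of low genes. Transplant against sedentary HSC, and all levels across HSC columns, used recovered reads joined on gene symbol and scaled by the median of ratios. EdgeR 4.0.16 and DESeq2 1.42.0 on recovered reads were alternatives. The limma fits were tested on simulated data with 200 changed genes of log2 fold 3, all with a mean of at least 50. Recovered were 95.5%, 97.5% and 98% in active against sedentary, transplant against active and transplant against sedentary HSC (13465, 13599 and 13304 genes). In tumours of week 12 and week 18, 79.5% and 82.5% were recovered (19088 and 18843 genes). Unchanged genes were also called, 11, 18 and 24 in these HSC comparisons and 19 and 9 in the tumours. The rates do not cover smaller folds or genes of lower level, such as Ltb4r2 in HSC or Mgst2 in tumours of week 18.

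The members and lists were chosen with earlier results of these data known. All members are named, with up to 4 called genes per list and direction by smallest p, and the 5 genes most like each of the 2 members of widest range. Same-numbered libraries deviated together in transplant against active HSC (correlations 0.16 to 0.32) and in week 18 tumours (0.17 to 0.19), a pairing read from the data that the labels do not explain.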

Additional observations from a re-analysis of the deposited data

How the results depend on the processing

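Members called by limma were 0 in active against sedentary HSC and 3 with DESeq2. They were 0 in transplant against active HSC, 3 with DESeq2 and 0 to 2 with 1 library left out. In transplant against sedentary HSC the count of 6 ranged from 4 to 8 with 1 library left out, beside 236 to 1667 calls over all genes. With the replicate number as a block it was 4 and 2 of the 23 list genes kept their call. Same-numbered libraries did not all deviate together there, with correlations of -0.28 to 0.19, but the third library of each group is the deeply sequenced one. The block changed no member's call in the other comparisons. In tumours the member count was 0 in every alternative run. Genes called over the whole table moved more. The 1552 in transplant against sedentary HSC became 2566 with edgeR, 3181 with DESeq2 and 95 with the block. The 7 in transplant against active HSC became 1107 with DESeq2, 1 with edgeR and 0 to 79 with 1 library left out. The 99 at week 12 became 208 with DESeq2, 0 with the block and 9 to 34 without 1 of the sedentary tumours. DESeq2 gave 257 against 0 in active against sedentary HSC and 52 against 0 at week 18, and the block gave 69 against 2 for the change between weeks. With 1 library left out, some log2 fold changes turned their sign. Not all of these were near 0 with all libraries. In tumours of week 12 Ltb4r2 had been at -0.93 and Ltc4s at 0.66, and at week 18 Alox5 had been at -0.46. In HSC, Ltc4s ranged from -0.36 to 0.27 in active against sedentary, -0.017 to 0.70 in transplant against active and -0.0031 to 0.71 in transplant against sedentary, and Mgst3 from -0.0225 to 0.21 in transplant against active. In tumours of week 12 the ranges were -0.046 to 0.27 for Ltb4r1, -0.39 to 0.0127 for Alox5ap, -0.024 to 0.35 for Mgst1, -0.042 to 1.40 for Ltc4s and -1.56 to 0.078 for Ltb4r2. At week 18 they were -0.51 to 1.01 for Ltb4r1, -0.59 to 0.38 for Alox5ap, -1.03 to 0.33 for Alox5 and -0.37 to 0.17 for Mgst3, and Ltb4r1 was at -0.093 with edgeR and -0.095 with DESeq2. The cause was not tested. The alternatives for list genes were chosen after seeing the data. Depth limits Ltb4r2, with 0 to 22 reads per HSC library.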
